A study of Mus musculus with 12 samples.

Results

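The genes described here are 44 components of the smooth muscle contractile apparatus and of the actin cytoskeleton it is built on, out of 47729 genes counted. They were taken by name from a list that was drawn up with earlier results of these data known. The list was divided, roughly by textbook expression, into 23 genes called muscle-restricted here (Acta2, Myh11, Myocd and others) and 21 called widely expressed (Tpm4, Myh10, Cald1 and others). This division is approximate, and the counts by class below depend on it. The 23 include Sncg, Nrip2 and Mylk, the last abundant in both groups, and the 21 include Fhl1, a LIM protein of muscle. RNA was sequenced from cells sorted by flow cytometry after enzymatic digestion of the uteri of healthy, cycling female mice of the strain Pdgfrb-BAC-eGFP, with 12 mice named for the series. These mice carry green fluorescent protein (GFP) as a reporter of Pdgfrb, the platelet-derived growth factor receptor beta gene, on a bacterial artificial chromosome, and all 12 libraries share this transgene. The GFPtotal group, which the submitters also call Naive, has 6 libraries of all GFP-positive cells, and the GFPlow group, which they call Stromal and label GFPdim in the sample entries, has 6 libraries of the dimmer cells alone. No age or cycle stage is given in the sources used here.

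GFPtotal cells hold both GFP-high perivascular cells and GFP-low stromal fibroblasts, so every difference below is between a mixture and one of its own parts. The level of a gene in sorted GFP-high cells was not measured. The series sets these groups against each other to infer the profile of the GFP-high cells. The labels name no mouse for a library. The p-values thus reflect library-to-library spread, which may in part be technical.

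Smooth muscle cells shorten when myosin heads, carried by a heavy chain and a pair of light chains, pull on actin filaments. Calcium starts this by way of myosin light chain kinase, which phosphorylates the regulatory light chain, and myosin phosphatase reverses it. Tropomyosins, calponins, caldesmon and transgelin lie along the actin filament, and dense plaques tie the filaments to the membrane. Many of the muscle-restricted genes are controlled by serum response factor (SRF) and its partner myocardin, through a DNA element called the CArG box. In the uterus, contractile cells are found in the myometrium and in the walls of blood vessels, and pericytes share part of this gene set.

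Total counts ranged from 12631266 to 14950639 in GFPtotal libraries and from 14339804 to 18425596 in GFPlow libraries, and mitochondrial genes took 32.4% to 49.0% of counts over all libraries. Together the 44 genes held 0.866% to 1.17% of the nuclear counts in GFPtotal libraries and 0.855% to 1.06% in GFPlow libraries. GFPtotal libraries 3, 4 and 5 stood apart, at 102 to 107 on principal component 1, which held 34% of the variance, against -3.82 to 6.66 for GFPtotal libraries 1, 2 and 6 and -64.6 to -31.1 for the GFPlow libraries. The file of the library labelled GFPlow 6 carries the name N8 in its header, in the pattern used for GFPtotal libraries, whereas the other 11 files carry the name of their own label. That library lay at -62.1 on that component, among the other GFPlow libraries. It was kept under its label, and values without it are given where they bear on a call or a level. Rgs5, a pericyte marker used to check the sort, had a depth-scaled level (CPM, edgeR's counts scaled to library size) of 593.5, 771.7 and 934.2 (lowest, median and highest library) in GFPtotal cells, against 0.904, 4.11 and 10.9 in GFPlow cells, where the highest was 7.71 without the library labelled GFPlow 6. Pdgfrb itself was higher in GFPtotal cells, at 114.3 ± 36.0 CPM against 65.1 ± 15.0 CPM in GFPlow cells (SD, n = 6 each), a log2 fold change of 0.81 (adjusted p = 0.0305, edgeR), and 0.91 without that library.

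Of 10 listed pericyte markers, 7 could be tested and all 7 were higher in GFPtotal cells, with a summed level of 954.4 to 1690.8 CPM in GFPtotal libraries and 61.8 to 103.9 CPM in GFPlow libraries (61.8 to 91.9 CPM without the library labelled GFPlow 6). The list includes Rgs5 and Pdgfrb, the gene of the sort reporter, so it is not independent of the sort. Rgs5 made up most of the GFPtotal sums (593.5 to 934.2 CPM). Pdgfrb made up most of the GFPlow sums (50.7 to 87.1 CPM). The 8 fibroblast markers summed to 23338 to 40072 CPM in GFPtotal libraries and 15417 to 23279 CPM in GFPlow libraries (15417 to 20981 CPM without that library), with 1 of 8 tested higher. Col3a1 was the most abundant of the 8. Every GFPtotal sum lay above every GFPlow sum, although GFPlow is the sorted stromal part. The sum was therefore not taken as a measure of the share of fibroblasts. Epithelial markers reached a sum of 1.6 to 12.9 CPM in GFPtotal libraries, against 7.44 to 12.0 CPM in GFPlow libraries. Endothelial markers reached 33.1 to 59.6 CPM in GFPtotal libraries, against 39.3 to 60.0 CPM in GFPlow libraries. Of 4 endothelial markers tested, 0 were higher and 1 was lower in GFPtotal cells. Leukocyte markers reached 0.405 to 3.29 CPM in GFPtotal libraries, against 0.489 to 4.55 CPM in GFPlow libraries. Cldn5 of the endothelial list and 4 globin genes of the erythroid list were at 0 in every library. The part of any of these cell types in the results below was not tested.

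A subset of muscle-restricted contractile genes was higher in GFPtotal cells, 8 of the 19 tested, and 1 of 21 widely expressed genes was. In all, 9 genes were called higher and 0 lower, at an adjusted p below 0.05 in edgeR's quasi-likelihood test over all 14523 genes tested. The 9 were Acta2, Actg2, Myh11, Myocd, Sorbs2, Pln, Tpm2, Ppp1r12b and Tpm1. Of the 40 members with enough counts to be tested, 9 were therefore called higher, whereas 4.55% of all genes tested were called higher and 0.854% lower. The median log2 fold change (GFPtotal minus GFPlow) was 0.31 over the 40 genes and -0.0006 over all genes tested. The groups differ in composition by design, and in bulk RNA fewer cells of a type and less RNA per cell cannot be told apart.

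The 19 tested muscle-restricted genes had a median log2 fold change of 1.76, and 11 of them were not called. This median and count depend in part on the filter for low counts. Genes near 0 in GFPlow cells, such as Actg2 and Myocd, entered the test through their GFPtotal counts. The filter left out Cnn1 and Lmod1, with more counts in GFPtotal libraries, Ppp1r14a, with more in GFPlow libraries, and Sncg. The 21 widely expressed genes had a median of 0.08, and Tpm1 was the 1 called. At an unadjusted p below 0.05, 17 members were higher and 1 (Myh10) lower, against 12.8% and 7.07% of all genes tested. DESeq2 and limma-voom also called 0 members lower, against 2.28% and 1.88% of all genes. All 6 GFPtotal libraries lay above all 6 GFPlow libraries for 10 of the 40 tested members, the 9 called genes and Myl9, against 2.86% of all genes tested. None of the 40 lay wholly below, against 0.806% of all genes. Without the library labelled GFPlow 6, the same 9 members were called, at log2 fold changes of 1.58 for Tpm2, 0.89 for Tpm1, 2.19 for Pln, 0.99 for Ppp1r12b and 2.62 for Sorbs2 beside those given below, against 3.62% of all genes tested. Without GFPtotal libraries 3, 4 and 5, 5 of the 9 were still called (Acta2, Actg2, Myh11, Tpm2 and Sorbs2), against 1.56% of all genes.

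**Figure D1:**
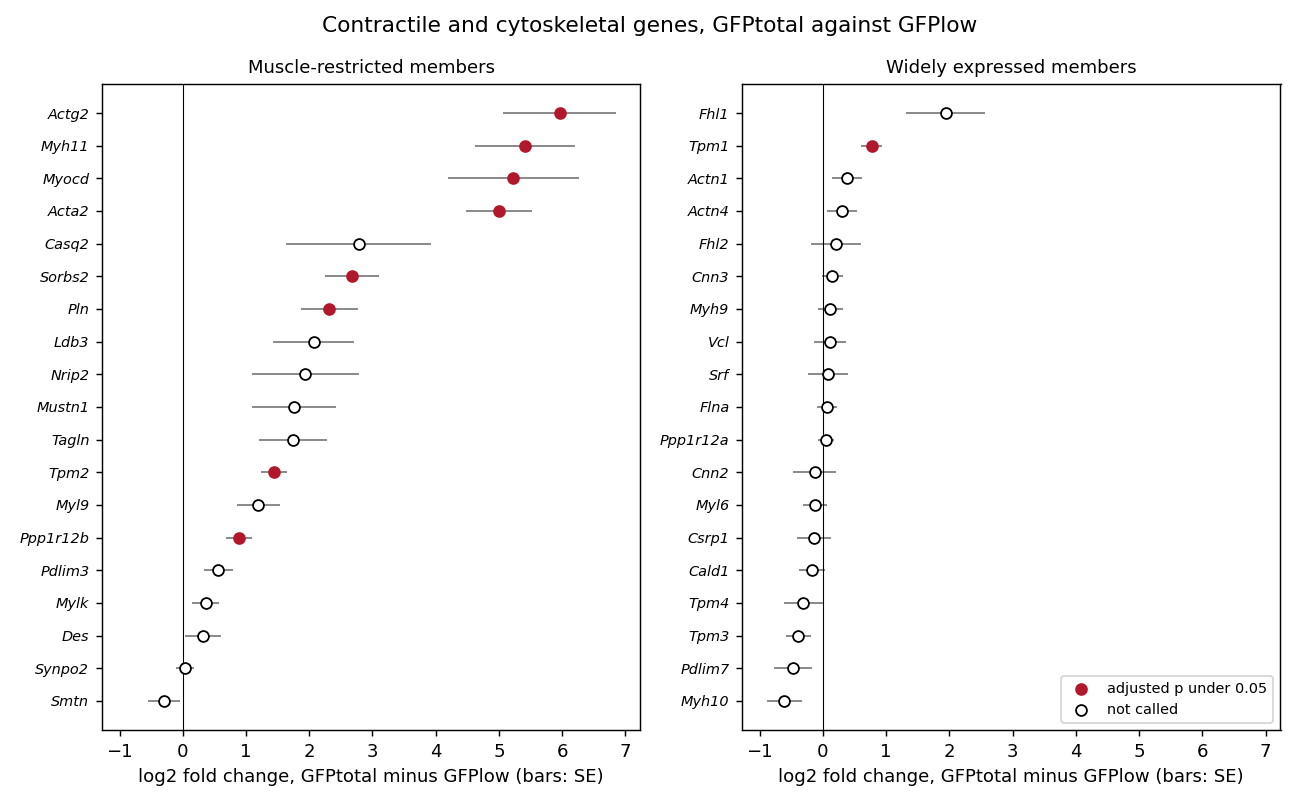
Log2 fold change (GFPtotal minus GFPlow) with its standard error for tested members, ordered within the muscle-restricted and the widely expressed genes. The called genes reach from 0.77 (Tpm1) to 5.96 (Actg2), and Tpm1 is the only called gene among the widely expressed ones.

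To show the letters behind the textbook link between these genes and SRF, the promoters were searched for CArG boxes. The window was the 250 bases before the RefSeq transcription start on GRCm38.p6, and 38 of the 44 members had one. Myocd, Tagln, Nrip2, Actg2 and Myh11 were among those not matched. The exact CArG box, which reads as the same motif on both strands, was found in 8 of 38 members (21.1%), against 439 of 27025 genes with a window (1.62%). It was found in 6 of 20 widely expressed members (Cnn2, Myl6, Srf, Vcl, Fhl1 and Fhl2) and in 2 of 18 muscle-restricted members (Myl9 and Ldb3). None of the 6 called members with a window held an exact box. Beside the 1.62% of all genes, a count of 0 among 6 carries no information. Sites outside the window were not searched. A match or its absence is thus only a description of these letters. A form with 1 G or C among the middle 6 bases was found in 4 members (10.5%), against 8.33% of all genes. Acta2, a called gene, held 2 of these, which begin 84 and 34 bases before the start. The Acta2 window is shown because it contains both near-matches (capitals). The other stretches show exact boxes (capitals) in genes that were not called. Their intervals are chr19:34255374-34255623 (minus strand) for Acta2, chr2:156775283-156775332 (plus) for Myl9, chr14:34588687-34588736 (minus) for Ldb3, chr17:46556215-46556264 (minus, with 2 boxes) for Srf and chr10:79988524-79988573 (plus) for Cnn2, each printed 5′ to 3′.
Acta2: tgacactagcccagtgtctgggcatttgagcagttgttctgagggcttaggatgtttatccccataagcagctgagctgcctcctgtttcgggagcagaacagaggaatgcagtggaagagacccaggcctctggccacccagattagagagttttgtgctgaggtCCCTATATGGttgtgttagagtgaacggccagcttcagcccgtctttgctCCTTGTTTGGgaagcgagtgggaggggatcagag
Myl9: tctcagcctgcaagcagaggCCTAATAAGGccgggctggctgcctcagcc
Ldb3: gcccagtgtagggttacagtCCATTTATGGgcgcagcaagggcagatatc
Srf: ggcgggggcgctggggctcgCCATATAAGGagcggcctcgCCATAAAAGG
Cnn2: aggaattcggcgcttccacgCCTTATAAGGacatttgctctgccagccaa

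Among thin filament genes, the muscle actins and a pair of tropomyosins were higher in GFPtotal cells. Acta2 (ENSMUSG00000035783, chr19:34241090-34255336 on GRCm38), the smooth muscle alpha-actin of vessel walls, had 35.7, 51.9 and 95.6 CPM (lowest, median, highest) in GFPtotal libraries, against 0.566, 1.35 and 5.16 CPM in GFPlow libraries. The groups did not overlap, and the highest GFPlow value was in the library labelled GFPlow 6. The log2 fold change was 5.00 ± 0.52 (SE; adjusted p = 4.43e-05, edgeR), and 5.72 without that library. Actg2 (chr6:83512905-83536265), the enteric smooth muscle gamma-actin, had 1.86, 10.7 and 21.7 CPM in GFPtotal libraries, against 0, 0.0588 and 0.59 CPM in GFPlow libraries. Its log2 fold change was 5.96 ± 0.89 (adjusted p = 0.000765, edgeR), 7.14 without GFPlow library 4 and 4.76 without GFPtotal libraries 3, 4 and 5. Acta2 and Actg2 are related in sequence, and the division of reads between them is uncertain.

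Tpm2 (chr4:43514711-43523765), the beta-tropomyosin of muscle, had 74.7, 91.1 and 117.6 CPM in GFPtotal libraries, against 23.8, 34.0 and 51.1 CPM in GFPlow libraries, with no overlap. Its log2 fold change was 1.44 ± 0.21 (adjusted p = 0.000512, edgeR), and it was called under every alternative tried. Unlike the actins, Tpm2 was lower in GFPtotal libraries 3, 4 and 5 (74.7 to 89.8 CPM) than in GFPtotal libraries 1, 2 and 6 (92.5 to 117.6 CPM). Tpm1 (chr9:67022590-67049406), the alpha-tropomyosin made in muscle and non-muscle forms, was the 1 widely expressed member called. It had 180.0, 195.9 and 224.7 CPM in GFPtotal libraries, against 72.5, 111.3 and 163.5 CPM in GFPlow libraries, a log2 fold change of 0.77 ± 0.17 (adjusted p = 0.0139, edgeR). Without GFPtotal libraries 3, 4 and 5 it was 0.68 and the call was lost (adjusted p = 0.114, edgeR), and with no scaling beyond the library total the adjusted p was 0.0639.

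The other thin filament genes did not pass the test. Tagln, which encodes the actin-binding protein transgelin (SM22), had 1.3, 5.44 and 14.0 CPM in GFPtotal libraries, against 0.8, 1.82 and 3.26 CPM in GFPlow libraries, with overlap. Its log2 fold change was 1.74 ± 0.54 (adjusted p = 0.0679, edgeR), past the threshold with DESeq2 (0.0154) and without GFPtotal library 2 (0.0237). Smtn, smoothelin of contractile smooth muscle, had 10.9, 22.5 and 33.7 CPM in GFPtotal libraries, against 24.5, 26.1 and 36.8 CPM in GFPlow libraries, a log2 fold change of -0.30 (adjusted p = 0.566, edgeR). Cald1, caldesmon, was the most counted member, with 983.1, 1660 and 2200 CPM in GFPtotal libraries and 1397, 1712 and 2156 CPM in GFPlow libraries, a log2 fold change of -0.17 (adjusted p = 0.701), and 0.17 without GFPtotal libraries 3, 4 and 5. Tpm4, a cytoskeletal tropomyosin, had 218.4, 438.9 and 806.7 CPM in GFPtotal libraries, against 462.2, 599.3 and 692.0 CPM in GFPlow libraries. Its log2 fold change was -0.31 (adjusted p = 0.636), and GFPtotal libraries 3, 4 and 5 held its lowest values, 218.4 to 289.5 CPM. Without them its log2 fold change was 0.23. Cnn2, Cnn3 and Tpm3, the broadly expressed calponins and a further tropomyosin, had log2 fold changes of -0.39 to 0.15.

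Cnn1 and Lmod1 had too few counts for the filter. Cnn1, the calponin of differentiated smooth muscle, had 105 counts over the GFPtotal libraries, in 6 of 6, against 10 over the GFPlow libraries, in 2 of 6. The ratio of counts per total was 12.0 (exact 95% binomial interval 6.28 to 25.8, counting error only), and the adjusted p was 0.136 in an edgeR fit with no filter. Cnn1 was called higher with DESeq2, and with edgeR without GFPlow library 5, which held 8 of the 10 GFPlow counts. Lmod1, leiomodin, which starts new actin filaments in smooth muscle, had 134 counts in GFPtotal libraries against 3 in GFPlow libraries. The ratio was 51.1 (17.1 to 250.9), and all 6 GFPtotal libraries lay above all 6 GFPlow libraries. With no filter it was called, at a log2 fold change of 5.33 (adjusted p = 0.00939, edgeR).

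Of the myosin genes, the smooth muscle heavy chain Myh11 (chr16:14194527-14291408) was higher, with 73.6, 134.6 and 182.2 CPM in GFPtotal libraries, against 0.316, 1.65 and 9.07 CPM in GFPlow libraries. The groups were far apart, and the highest GFPlow value was again in the library labelled GFPlow 6. The log2 fold change was 5.41 ± 0.79 (adjusted p = 0.00205, edgeR), 6.13 without that library and 4.81 without GFPtotal libraries 3, 4 and 5. The non-muscle heavy chains were not called. Myh10 had 151.9, 270.6 and 495.6 CPM in GFPtotal libraries, against 319.1, 456.4 and 581.3 CPM in GFPlow libraries, with a log2 fold change of -0.61 ± 0.28 (adjusted p = 0.249, edgeR). Its GFPtotal libraries 3, 4 and 5 lay at 151.9 to 196.8 CPM, below every other library. Myh9 had a log2 fold change of 0.12 (adjusted p = 0.798).

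The light chains were not called. Myl9, the regulatory light chain of smooth muscle, had 12.0, 14.6 and 21.8 CPM in GFPtotal libraries, against 2.47, 7.68 and 10.7 CPM in GFPlow libraries. The groups did not overlap, yet the adjusted p was 0.0511 (edgeR; log2 fold change 1.19 ± 0.34). It passed with DESeq2 (adjusted p = 0.0114), with limma-voom (0.0279) and without GFPlow library 5 (0.0372, edgeR). Myl6, the essential light chain shared by smooth muscle and non-muscle myosin, had 18.3, 22.5 and 28.3 CPM in GFPtotal libraries and 20.5, 25.9 and 27.3 CPM in GFPlow libraries, a log2 fold change of -0.13 (adjusted p = 0.77).

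**Figure D2:**
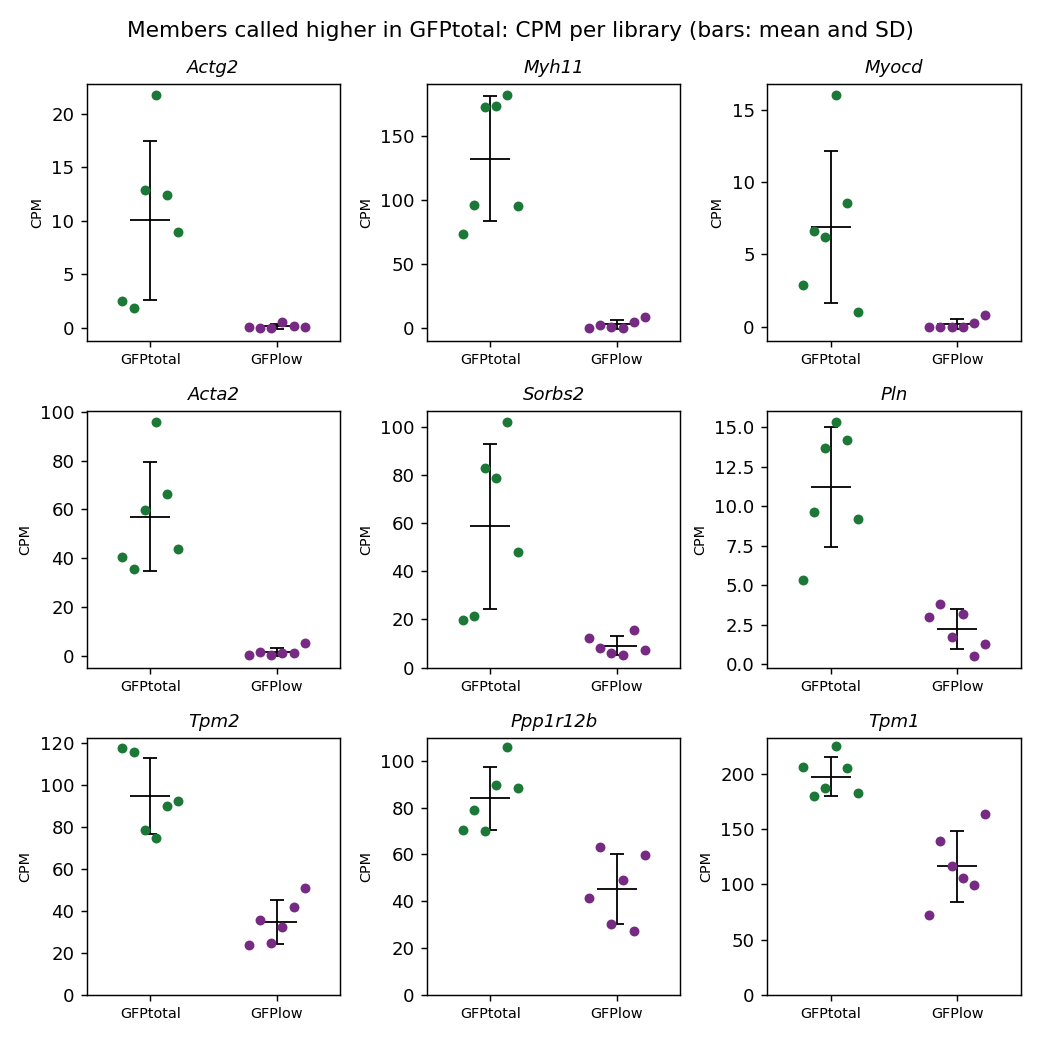
CPM of the 9 called members on linear axes scaled to each gene, GFPtotal left of GFPlow, 1 point per library, with mean and SD bars. All 6 GFPtotal points lie above all 6 GFPlow points for each gene, and the GFPlow points of Acta2, Actg2, Myh11 and Myocd lie near 0.

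Of 5 tested genes that set the phosphorylation of myosin, 1 was called higher, against 4.55% of all genes tested. With so few genes, 1 call is no result about the group. Ppp1r12b (chr1:134754658-134955942), the myosin phosphatase targeting subunit found chiefly in muscle, had 70.2, 83.6 and 105.8 CPM in GFPtotal libraries, against 27.1, 45.0 and 63.3 CPM in GFPlow libraries. The groups did not overlap, and the log2 fold change was 0.89 ± 0.21 (adjusted p = 0.0198, edgeR). That call was lost without GFPtotal library 5 (adjusted p = 0.0515), without GFPlow library 3 (0.0532), without GFPtotal libraries 3, 4 and 5 together (0.156) and with no scaling beyond the library total (0.0696). Its widely expressed relative Ppp1r12a had 193.5, 218.6 and 232.4 CPM in GFPtotal libraries and 165.8, 214.9 and 242.2 CPM in GFPlow libraries, a log2 fold change of 0.05 (adjusted p = 0.89). Mylk, the light chain kinase itself, had 208.4, 280.6 and 436.8 CPM in GFPtotal libraries, against 143.3, 238.9 and 295.2 CPM in GFPlow libraries. Its log2 fold change was 0.36 ± 0.21 (adjusted p = 0.368, edgeR), and the groups overlapped. It was -0.08 without GFPtotal libraries 3, 4 and 5, which held the highest values.

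Ppp1r14a, whose product CPI-17 inhibits the phosphatase in smooth muscle, had 25 counts over the GFPtotal libraries against 118 over the GFPlow libraries, a ratio of 0.242 (0.151 to 0.376, counting error only). It was too low for the filter, the groups overlapped, and the adjusted p was 0.241 in the edgeR fit with no filter.

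Of the calcium store genes, Pln (chr10:53337686-53345999), phospholamban, which restrains the calcium pump of the sarcoplasmic reticulum, was higher. It had 5.34, 11.6 and 15.3 CPM in GFPtotal libraries, against 0.509, 2.34 and 3.79 CPM in GFPlow libraries, with no overlap. The log2 fold change was 2.32 ± 0.45 (adjusted p = 0.00502, edgeR), and 1.82 without GFPtotal libraries 3, 4 and 5, where the call was lost (adjusted p = 0.147). Casq2, the calcium-binding calsequestrin of heart and smooth muscle, had 0.178, 1.79 and 11.5 CPM in GFPtotal libraries, against 0, 0.207 and 1.3 CPM in GFPlow libraries, and the groups overlapped. Its log2 fold change was 2.78 ± 1.14 (adjusted p = 0.177), with GFPtotal library 4 far above the others. It was 1.72 without that library and 3.44 without GFPlow library 2, and the lowest value over all alternatives tried was 0.78.

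Myocd (chr11:65176561-65269989), myocardin, the coactivator that turns on smooth muscle genes with SRF, had 0.98, 6.43 and 16.0 CPM in GFPtotal libraries, against 0, 0 and 0.814 CPM in GFPlow libraries. In GFPlow cells 4 of 6 libraries were at 0, and the highest was the library labelled GFPlow 6. The log2 fold change was 5.23 ± 1.04 (adjusted p = 0.00702, edgeR). It was 7.18 without that library and 4.23 without GFPtotal libraries 3, 4 and 5, where the call was lost (adjusted p = 0.126). The gene of SRF itself was not called, with 5.43, 6.03 and 7.53 CPM for Srf in GFPtotal libraries and 3.71, 6.07 and 7.97 CPM in GFPlow libraries (log2 fold change 0.08 ± 0.31, adjusted p = 0.922). Fhl2, a LIM protein that binds SRF, had a log2 fold change of 0.21 ± 0.40 (adjusted p = 0.824).

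Among the 12 genes for filament anchors and cross-linkers, Sorbs2 (chr8:45507788-45827906), an adaptor of stress fibres and Z-discs, was the 1 called. Over all genes tested 4.55% were called higher, so 1 of 12 is no result about this group. Sorbs2 had 19.9, 63.2 and 101.7 CPM in GFPtotal libraries, against 5.37, 7.85 and 15.6 CPM in GFPlow libraries. The log2 fold change was 2.68 ± 0.43 (adjusted p = 0.00161, edgeR), and 1.68 without GFPtotal libraries 3, 4 and 5, which lay at 78.5 to 101.7 CPM. When the library labelled GFPlow 6 was left out as well, the call was lost (adjusted p = 0.0564). Ldb3, a Z-disc PDZ-LIM protein, had 3.01, 4.64 and 8.65 CPM in GFPtotal libraries, against 0.17, 0.919 and 3.33 CPM in GFPlow libraries (log2 fold change 2.07 ± 0.64, adjusted p = 0.0717). Without GFPlow library 3 it was called (2.73, adjusted p = 0.0242, edgeR). Markers of striated muscle summed to 7.84 to 43.9 CPM in GFPtotal libraries and 14.4 to 24.7 CPM in GFPlow libraries, mostly Ttn, and Myh1 and Myh4 were at 0 in every library.

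Des, the muscle intermediate filament desmin, had 22.4, 34.4 and 51.1 CPM in GFPtotal libraries and 16.2, 23.3 and 49.6 CPM in GFPlow libraries, a log2 fold change of 0.32 ± 0.28 (adjusted p = 0.581, edgeR). Synpo2, an actin-binding protein of muscle Z-discs, had 264.4, 288.9 and 346.0 CPM in GFPtotal libraries and 236.1, 290.9 and 365.8 CPM in GFPlow libraries, a log2 fold change of 0.03 ± 0.14 (adjusted p = 0.947). Desmin and Synpo2, both muscle-associated, were thus at overlapping levels in both groups. Pdlim3, a PDZ-LIM protein of muscle Z-lines, had 19.0, 23.8 and 37.1 CPM in GFPtotal libraries and 13.0, 17.2 and 24.3 CPM in GFPlow libraries (log2 fold change 0.56 ± 0.23, adjusted p = 0.173). Fhl1, a LIM protein of muscle, had 24.5, 64.9 and 139.9 CPM in GFPtotal libraries and 6.99, 12.5 and 54.5 CPM in GFPlow libraries (1.94 ± 0.62, adjusted p = 0.096). It was called without GFPlow library 1 (2.63, adjusted p = 0.0105, edgeR). Over all alternatives tried, the log2 fold change of Fhl1 ranged from 0.34 to 2.63. GFPtotal libraries 3, 4 and 5 lay at 101.7 to 139.9 CPM for Fhl1. GFPtotal libraries 1, 2 and 6 lay at 24.5 to 28.1 CPM, within the range of the GFPlow libraries. The other 6 anchors, Vcl, Flna, Actn1, Actn4, Csrp1 and Pdlim7, had log2 fold changes of -0.47 to 0.38, and none was called.

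The remaining 3 muscle-associated members were scarce. Mustn1, a small nuclear protein of the musculoskeletal system, had 1.05, 2.09 and 3.0 CPM in GFPtotal libraries and 0.0632, 0.659 and 1.18 CPM in GFPlow libraries (log2 fold change 1.76 ± 0.67, adjusted p = 0.145, edgeR). Nrip2, a nuclear receptor interacting protein, had 0.972, 1.52 and 5.28 CPM in GFPtotal libraries and 0, 0.221 and 1.95 CPM in GFPlow libraries (1.94 ± 0.84, adjusted p = 0.201; 2.95 without GFPlow library 4). Both overlapped between the groups. Sncg, gamma-synuclein, had 2 counts in 1 GFPtotal library and 0 in GFPlow libraries.

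Per length, the most abundant member was the same in both groups. By mean RPKM, the CPM divided by gene length in kilobases, Tpm4 ranked 1 of 44 with 213.2 RPKM in GFPtotal and 264.8 RPKM in GFPlow cells, and in both groups Cald1 ranked 2 and Ppp1r12a ranked 5. Below these the order differed. Acta2 ranked 8 in GFPtotal cells (32.0 ± 12.5 RPKM) and 31 in GFPlow cells (0.984 ± 0.966 RPKM). Myh11 ranked 14 in GFPtotal cells and 36 in GFPlow cells. Tpm2 ranked 7 in GFPtotal cells and 15 in GFPlow cells. Without the library labelled GFPlow 6, the GFPlow ranks were 33 for Acta2, 36 for Myh11 and 16 for Tpm2. Neighbours in the GFPtotal order from rank 6 to rank 11 (Myl6, Tpm2, Acta2, Tpm1, Mylk and Myh10) had means of 28.6 to 33.8 RPKM, and these did not differ beyond their spread.

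**Figure D3:**
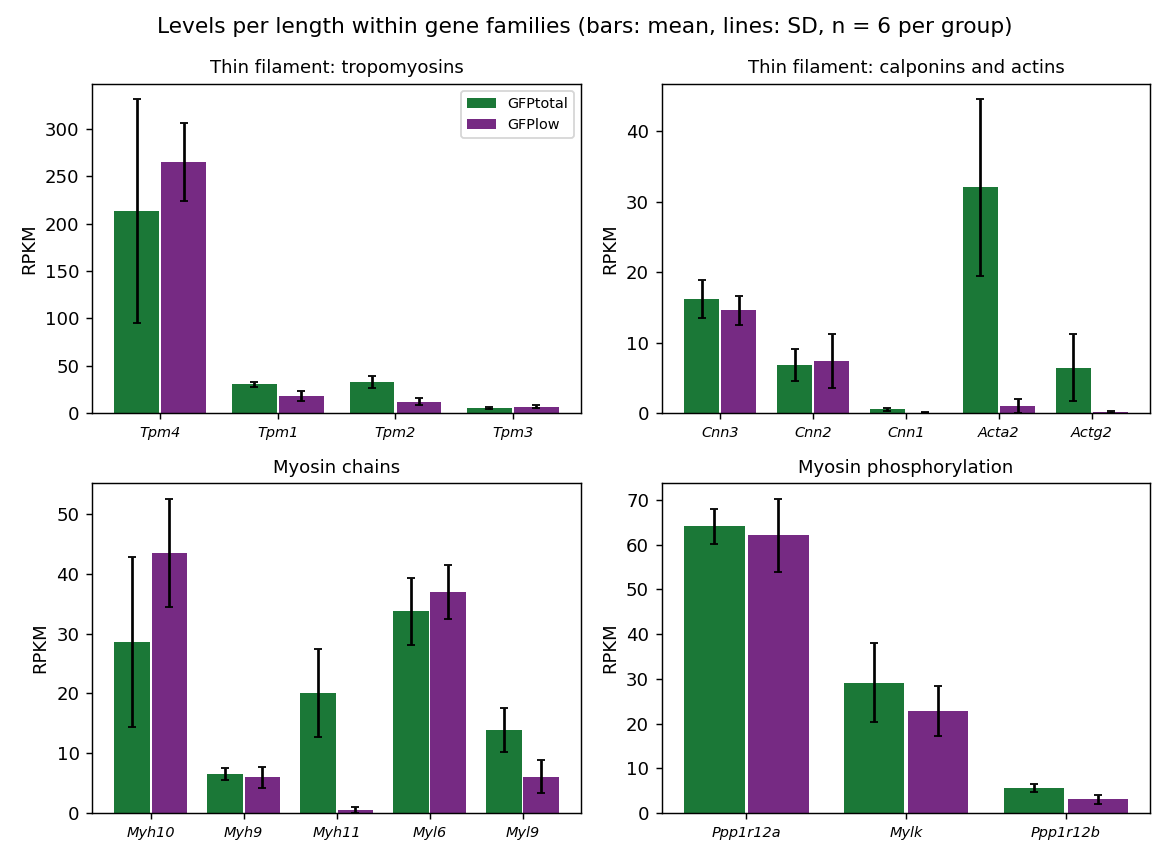
Mean RPKM (bars) with SD (lines, n = 6 libraries each) of related genes in GFPtotal and GFPlow cells, on linear axes that differ between panels. The GFPtotal bars of Acta2, Actg2, Myh11 and Tpm2 stand above their GFPlow bars, while the SD lines of Myh9, Myh10 and Tpm4 overlap.

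The make-up of the gene families therefore differed between the groups, given here as shares of summed RPKM with no test. Only reads of mapping quality at least 10 were counted. Losses of reads from related genes may be uneven and were not measured, so the percentages describe counted reads only. Myh11 made up 38.2 ± 18.1% of the 3 heavy chains in GFPtotal cells and 0.863 ± 0.884% in GFPlow cells (SD, n = 6 each). Acta2 and Actg2 together made up 33.1 ± 14.6% of 4 actins (with Actb and Actg1) in GFPtotal cells and 1.13 ± 0.722% in GFPlow cells. Without the library labelled GFPlow 6 the GFPlow shares were 0.618 ± 0.725% for Myh11 and 0.889 ± 0.454% for the actins (n = 5). Both shares were high in GFPtotal libraries 3, 4 and 5, at 52.2% to 57.8% for Myh11 and 42.7% to 48.7% for the actins, and lower in GFPtotal libraries 1, 2 and 6, at 18.2% to 26.6% for Myh11 and 17.0% to 25.3% for the actins. Among tropomyosins Tpm2 made up 12.8 ± 3.84% in GFPtotal cells and 4.00 ± 1.08% in GFPlow cells, and Tpm4 made up 72.1 ± 10.6% in GFPtotal cells and 87.9 ± 1.59% in GFPlow cells. Myl9 made up 46.4 ± 5.35% of the regulatory light chains (with Myl12a and Myl12b) in GFPtotal cells and 25.4 ± 7.91% in GFPlow cells. Ppp1r12b was 8.07 ± 1.42% of the pair of phosphatase subunits in GFPtotal cells and 4.63 ± 1.43% in GFPlow cells. Cnn3 was the main calponin in both groups, at 69.1 ± 6.85% in GFPtotal cells and 67.5 ± 11.5% in GFPlow cells. Without the library labelled GFPlow 6, the GFPlow shares were 3.78% for Tpm2, 88.4% for Tpm4, 24.8% for Myl9, 4.31% for Ppp1r12b and 70.3% for Cnn3.

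**Figure D4:**
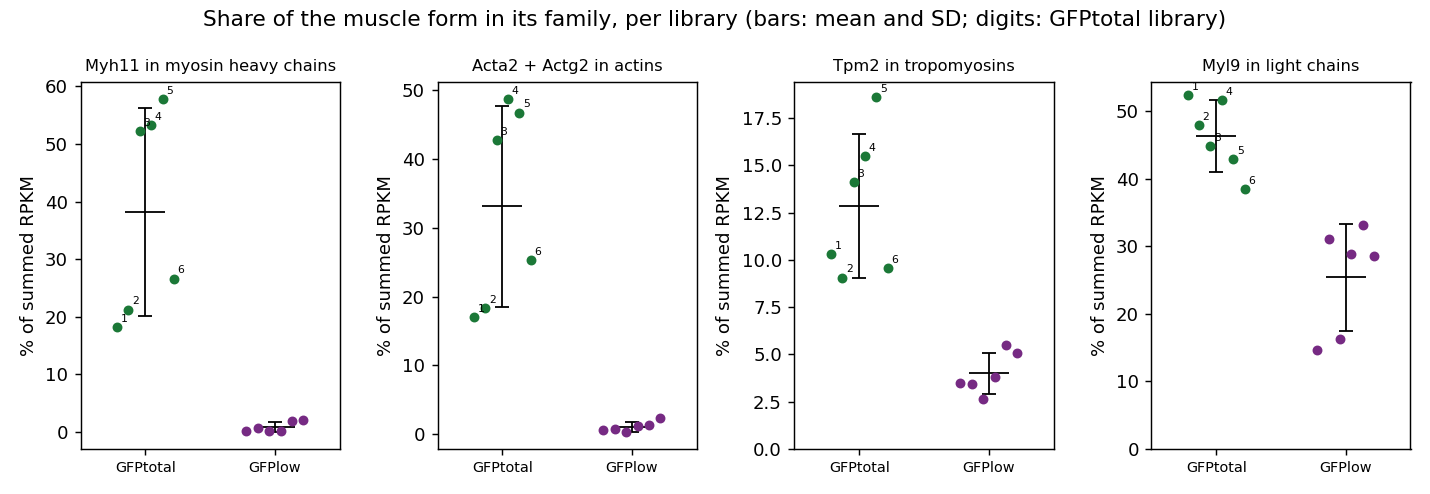
Share of summed RPKM held by the muscle form within its family (%), 1 point per library with mean and SD bars, GFPtotal (library number beside each point) left of GFPlow. Myh11 spans 18.2% to 57.8% in GFPtotal libraries and 0.141% to 2.09% in GFPlow libraries.

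The called genes differed in how much remained in GFPlow cells. The GFPlow mean was 1.54% of the GFPtotal mean for Actg2, 2.34% for Myh11, 2.50% for Myocd and 3.07% for Acta2. Single libraries moved these 4 values: without the library labelled GFPlow 6 the share was 0.634% for Myocd, 1.44% for Myh11 and 1.88% for Acta2, and without GFPlow library 4 it was 0.668% for Actg2. Their order is therefore not settled by these libraries. The GFPlow mean was 15.7% for Sorbs2, 19.9% for Pln, 36.8% for Tpm2, 53.8% for Ppp1r12b and 58.8% for Tpm1. For Rgs5 it was 0.615%, and 0.458% without the library labelled GFPlow 6. The library labelled GFPlow 6 held the highest GFPlow value of Acta2, Myh11, Myocd, Tpm1, Tpm2 and Rgs5.

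Within the GFPtotal group, the libraries that stood apart also differed in these genes, as a description with no test. Libraries 3, 4 and 5 lay wholly above libraries 1, 2 and 6 for 9 of 40 tested members (Acta2, Actg2, Myh11, Mylk, Mustn1, Synpo2, Pln, Sorbs2 and Fhl1), against 16.7% of all genes tested. They lay wholly below for 8 (among them Myh10, Tpm2, Tpm4, Ppp1r12a, Cald1, Vcl and Pdlim7), against 15.7% of all genes. These shares are near the background, so they are no result about the contractile genes. In libraries 3, 4 and 5 the fibroblast markers summed to 23338 to 27303 CPM, and in libraries 1, 2 and 6 to 37604 to 40072 CPM. Here too that sum was not taken as the share of fibroblasts. Pericyte markers summed to 1334 to 1691 CPM in libraries 3, 4 and 5 and 954.4 to 1313.5 CPM in libraries 1, 2 and 6, while striated muscle markers summed to 38.4 to 43.9 CPM in libraries 3, 4 and 5 and 7.84 to 16.0 CPM in libraries 1, 2 and 6. Their part in the differences was not tested.

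Of 57 other genes of the contractile pathway, 48 were tested, 6 were higher and 0 lower, against 4.55% and 0.854% of all genes tested, with a median log2 fold change of 0.12. At an unadjusted p below 0.05, 3 were lower, against 7.07% of all genes. DESeq2 and limma-voom each called 2 lower, against 2.28% and 1.88% of all genes. Those lower at the unadjusted threshold were Svil (given below), Flnc and Myl4. Flnc, a filamin, had 9.29 to 39.0 CPM in GFPtotal libraries, against 30.1 to 46.1 CPM in GFPlow libraries. Its log2 fold change was -0.93 ± 0.29 (adjusted p = 0.0712, edgeR). Myl4, a myosin chain, had -1.44 ± 0.63 (adjusted p = 0.207, edgeR). Nexn, the actin-binding nexilin, had 30.1, 46.9 and 60.4 CPM in GFPtotal libraries, against 7.01, 10.6 and 19.0 CPM in GFPlow libraries (log2 fold change 2.02 ± 0.27, adjusted p = 0.000299, edgeR). Pdlim5, a PDZ-LIM protein of Z-discs, had 42.7, 54.1 and 64.9 CPM in GFPtotal libraries, against 14.7, 18.3 and 23.5 CPM in GFPlow libraries (1.53 ± 0.18, adjusted p = 0.000122). These 2 were called under every alternative tried. Pgm5, aciculin of adherens junctions, had a log2 fold change of 1.75 ± 0.45 (adjusted p = 0.0303), and it had 9.47 to 50.3 CPM in GFPtotal libraries, against 2.7 to 12.7 CPM in GFPlow libraries. Leaving out GFPtotal library 3, 4 or 5 or GFPlow library 2, 3, 4 or 6 alone ended that call, with adjusted p of 0.0573 to 0.0886. Dmd, dystrophin, had 1.45 ± 0.32 (adjusted p = 0.0152), with 82.0 to 269.3 CPM in GFPtotal libraries and 34.3 to 109.7 CPM in GFPlow libraries.

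Prkg1, the cyclic GMP-dependent kinase that relaxes smooth muscle, had 16.6, 31.5 and 49.9 CPM in GFPtotal libraries, against 4.15, 11.9 and 17.4 CPM in GFPlow libraries (log2 fold change 1.38 ± 0.34, adjusted p = 0.0246, edgeR). The call was lost without GFPtotal library 3 or 5 or GFPlow library 2 or 3, at adjusted p of 0.0607 to 0.0664. Mrtfb, a further SRF cofactor, had 52.1, 61.6 and 89.6 CPM in GFPtotal libraries, against 29.6, 40.4 and 48.0 CPM in GFPlow libraries (0.78 ± 0.18, adjusted p = 0.0159), and the call was lost without GFPtotal library 3 (0.0589). Without GFPtotal libraries 3, 4 and 5 together, Pgm5, Dmd, Prkg1 and Mrtfb were not called, at adjusted p of 0.162 to 0.564. The most abundant of the 57 per length did not pass. Vim, vimentin, had 808.4, 933.3 and 1123 CPM in GFPtotal libraries and 418.4, 664.7 and 1042 CPM in GFPlow libraries (0.40 ± 0.21, adjusted p = 0.307). Actb, the cytoskeletal beta-actin, had a log2 fold change of -0.14 (adjusted p = 0.789). Svil, supervillin, which ties actin and myosin to the membrane, had 357.6, 492.1 and 668.3 CPM in GFPtotal libraries, against 608.8, 761.2 and 1041 CPM in GFPlow libraries (-0.63 ± 0.18, adjusted p = 0.0521).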

How the data were processed

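The deposited values were raw counts per gene. According to the headers, the authors ran featureCounts 1.6.4 in paired-end mode over the exons of Ensembl release 84 (GRCm38), kept mapping quality of at least 10 and ignored strand, so a gene and its antisense partner cannot be told apart. Cutadapt and SAMtools are named in the submitters' processing notes. The aligner was not stated in the labels or headers. Vcl (39.9%), Nrip2 (18.8%), Cnn3 (17.7%) and Smtn (16.3%) share 10% or more of their exonic bases with another gene.

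From the counts, edgeR 4.0.16 (R 4.3.3) kept genes by filterByExpr, scaled by TMM and ran the quasi-likelihood F test, two-sided, with Benjamini-Hochberg adjustment over all genes and a threshold of 0.05. CPM and RPKM use TMM-scaled library sizes. RPKM uses the gene length in the files. DESeq2 1.42.0 and limma 3.58.1 were among 22 other settings, 1 of them (without GFPtotal 3, 4 and 5 and GFPlow 6) chosen after seeing the data. Scripts were tested on simulated data. Promoter windows are from RefSeq. No replicate pair agreed within sampling noise (chi-square per degree of freedom at least 20.9). Members and lists were chosen with earlier results of these data known. Results of some listed genes are not reported here, though counts over the list include them. Full values are otherwise given for all called members, the 8 most abundant uncalled members by RPKM, all muscle-restricted members, and up to 6 called and 3 most abundant genes of the pathway list, with Pdgfrb and Rgs5 as sort checks. Other members are given by range and counts. Values of Srf, Fhl1, Fhl2, Myh9, Flnc and Myl4 were added after they were seen. Binomial intervals cover counting error only.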

Additional observations from a re-analysis of the deposited data

Results flagged for a closer look

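Of 87 groups of 6 libraries examined over the members, 11 had 1 library far from the other 5. Chance flags about 1 in 20 such groups only where values are normally distributed. The flagged groups of Sncg (GFPtotal), Cnn1 and Myocd (both GFPlow) were mostly at 0 CPM, where a single nonzero library can be flagged. The 11 flags therefore cannot be compared with that rate, and they are given as a description only. In GFPtotal cells, library 4 was high for Casq2 (11.5 CPM, the next at 3.29) and Nrip2 (5.28 CPM, the next at 2.4) and low for Ppp1r12a (193.5 CPM, the next at 218.1), and library 1 held the 0.155 CPM of Sncg. In GFPlow cells, the library labelled GFPlow 6 was high for Acta2 (5.16 CPM, the next at 1.53) and Myocd (0.814 CPM, the next at 0.218). GFPlow library 4 was high for Actg2 (0.59 CPM, the next at 0.218) and Nrip2 (1.95 CPM, the next at 0.706). GFPlow library 5 was high for Cnn1 (0.582 CPM), library 3 for Smtn (36.8 CPM) and library 1 for Fhl1 (54.5 CPM, the next at 16.6).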

How the results depend on the processing

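The 9 called members kept their direction under the 22 other settings, and 0 members were called lower under any. Of the 31 uncalled members, 12 crossed 0 under at least 1 setting, at adjusted p of 0.572 or more. Without GFPtotal libraries 3, 4 and 5 the log2 fold change was 0.15 for Cnn2, -0.08 for Mylk, -0.15 for Synpo2, 0.23 for Tpm4 and 0.17 for Cald1. With the library labelled GFPlow 6 also out it was 0.37 for Cnn2, -0.02 for Mylk, -0.15 for Synpo2, 0.27 for Tpm4, 0.14 for Cald1, 0.04 for Csrp1 and 0.14 for Pdlim7. With the library total alone it was -0.02 for Synpo2, -0.03 for Ppp1r12a, -0.01 for Srf and -0.04 for Vcl, and without mitochondrial genes -0.0 for Synpo2. Leaving out 1 library at a time gave -0.28 to 0.09 for Cnn2, -0.29 to 0.02 for Csrp1, -0.01 to 0.24 for Myh9, -0.01 to 0.14 for Flna, -0.02 to 0.08 for Ppp1r12a, -0.03 to 0.18 for Srf, -0.04 to 0.24 for Vcl and -0.05 to 0.10 for Synpo2. DESeq2's Wald test called 1339 genes higher and 447 lower, 16 members higher, 14 of them muscle-restricted and 2 widely expressed. It added Cnn1, Fhl1, Ldb3, Lmod1, Mustn1, Myl9 and Tagln to the 9. Limma-voom called 716 genes higher and 273 lower, and 12 members higher, 2 of them widely expressed. With the library total as the only scaling, 505 genes were called higher and 257 lower. Under it 7 members were called higher, 7 muscle-restricted and 0 widely expressed. Without GFPtotal libraries 3, 4 and 5, 245 genes were higher and 50 lower, with 5 muscle-restricted and 0 widely expressed members, 5 in all. Without these and the library labelled GFPlow 6, 243 genes were higher and 43 lower, with 6 members called, 5 muscle-restricted and 1 widely expressed (Tpm1, log2 fold change 0.81, adjusted p = 0.0374, edgeR). The cause of these shifts was not tested. Leaving out 1 library at a time gave 406 to 791 genes higher, 61 to 179 lower, 8 to 11 members higher, 7 to 10 muscle-restricted and 1 to 2 widely expressed. The lowest count of genes higher came without GFPtotal library 3. A fit with the replicate number as a block called 492 genes higher, 90 lower and 10 members higher, the added one being Ldb3 (adjusted p = 0.0422, edgeR). Under the block Prkg1 (adjusted p = 0.104) and Pgm5 (0.0603) were not called. With the library total alone Pgm5 (0.0504) and Mrtfb (0.0626) were not called. The labels do not link the numbers between the groups, so the numbers were not taken to pair the libraries. In deviations from their group mean, same-numbered libraries correlated at -0.139 to 0.0892, and 2 of 6 matched their own number best. This check cannot exclude pairing, because the split of GFPtotal libraries 3, 4 and 5 from 1, 2 and 6 can dominate these deviations. At this depth Cnn1, Lmod1, Ppp1r14a and Sncg were too scarce for the main test.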
